A study of Mus musculus with 2 samples.

Results

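Rfx6 peaks at CpG-rich one-strand promoters are the peaks of tagged Rfx6 whose summit, the position of highest signal, was at most 1 kb from protein-coding transcript starts of 1 strand only, with a GC fraction of at least 0.5 and an observed/expected CpG ratio of at least 0.6 in the 500 bp centred on the summit. They numbered 2838 of the 23308 peaks of the library (12.2%, 95% Wilson interval 11.8 to 12.6%). The observed/expected ratio compares the number of CpG dinucleotides with the number that the C and G content would give at random. The rule used position and base composition and no value of binding. Transcript starts are those of GENCODE release M1, and coordinates are those of the mouse genome NCBIM37 (mm9).

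Binding was measured in Min6b1 cells, an insulin-secreting β cell line of the mouse, grown in 25 mM glucose. In the HA-Rfx6 group the cells received 24 µg of the plasmid pCMV-Tag2A-3HA-Rfx6, in which the CMV promoter drives Rfx6 with 3 HA tags, and chromatin was precipitated with the anti-HA antibody 12CA5, so the peaks are those of an overexpressed, tagged protein. The HA-Ctrl group was an anti-HA precipitation from Min6b1 cells, which carry no HA tag by their cell type label, although the culture text attached to that sample names the same plasmid. Each group had 1 library, the peak list compares one with the other, and no replicate error can be given. Peaks of 1 library are not replicates, so every test below describes that library. The HA-Rfx6 library kept 33949757 of 49443917 reads after duplicates were removed, and the control kept 3567375 of 16911298, so the background of each peak rests on the shallower library. No expression values of these cells were used here, and their identity was not checked against markers.

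RFX proteins bind DNA with a winged-helix domain and recognise the X-box, a pair of inverted 6-base arms (GTTGCC and GGCAAC) separated by a few bases. Members of the family are known for their control of genes of the cilium, and Rfx6 is known for its part in the formation and function of pancreatic endocrine cells. CpG-rich promoters escape DNA methylation in most tissues and belong to many housekeeping and developmental genes. In mammals CpG-poor promoters are more often used in a tissue-specific manner.

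The sequences that follow show the X-box at the promoters of genes of the cilium and the centrosome. The box was 0 bp from the summit at Ift57, 6 bp at Bbs1 and 14 bp at Wdr35, and farther off at Tctn1 and Tubgcp3 (68 bp each) and Cep135 (76 bp). Each is a window of 30 bases on the strand of the gene, read from the NCBIM37 genome, 5′ to 3′, with the X-box in capitals.
Ift57 (chr16:49699312-49699341, plus strand): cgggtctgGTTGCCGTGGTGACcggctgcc
Tctn1 (chr5:122714412-122714441, minus strand): ctgtgactGTTGCCCGGGCAACagacgggc
Bbs1 (chr19:4906605-4906634, minus strand): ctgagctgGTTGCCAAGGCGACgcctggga
Wdr35 (chr12:8980839-8980868, plus strand): cggcggtgGTTGCCAGGCGACgggagcttc
Cep135 (chr5:77017784-77017813, plus strand): tccggtccGTTACCGGGGCAACggcggcgc
Tubgcp3 (chr8:12672208-12672237, minus strand): gctgcgagcGTCGCCCAGCAACgacttttc

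A further set shows the box at other members that ranked high by reads. Tbcel, Mtap6 and 1110004E09Rik hold both arms without a mismatch and 2 bases apart, whereas the boxes shown for Zfyve28 and Ap1m1 have a spacer of 1 base and that of Pik3r1 a spacer of 3 bases. Ap1m1 holds another box in the same summit window (chr8:74764169-74764181), not shown, with both arms without a mismatch and 1 base apart.
Palm2 (chr4:57447466-57447495, plus strand): ctgggcatGTTGCCATGGTGACcgatcccc
Mtap6 (chr7:106416746-106416775, plus strand): cggatgcaGTTGCCCGGGCAACagggcctg
Ap1m1 (chr8:74764206-74764235, plus strand): cccaccctGTTGCTAGGCAACtggccgacc
1110004E09Rik (chr16:90935261-90935290, minus strand): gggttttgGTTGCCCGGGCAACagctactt
Tbcel (chr9:42280414-42280443, minus strand): cattcccgGTTGCCATGGCAACcgcagctc
Zfyve28 (chr5:34631271-34631300, minus strand): ttgggcgccGTCACCTAGCAACgccgcgca
Pik3r1 (chr13:102537635-102537664, minus strand): gtcctggaGTTGCCAGCGGTCACcggctcc

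Most members had no such box. Whsc1l1 and Adck4, which are among the members with the most reads, had only a near X-box, with 2 mismatches to the arms in 12 bases, shown in capitals.
Whsc1l1 (chr8:26712184-26712213, plus strand): ggacgcggACTGCCCGGCAACccccgggca
Adck4 (chr7:28018192-28018221, plus strand): ggtaaggcGATGCCTAGCAACgaaaggggc

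The 200 bases before the start show the setting of the box at a cilium gene and at a gene related to tubulin folding. The Ift57 promoter held 17 CpG dinucleotides in these bases and the Tbcel promoter held 11.
Ift57 promoter (chr16:49699146-49699345, plus strand): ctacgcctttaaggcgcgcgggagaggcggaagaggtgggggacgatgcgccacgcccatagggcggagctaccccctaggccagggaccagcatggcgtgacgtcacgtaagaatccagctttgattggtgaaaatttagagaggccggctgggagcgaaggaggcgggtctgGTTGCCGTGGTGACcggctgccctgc
Tbcel promoter (chr9:42280349-42280548, minus strand): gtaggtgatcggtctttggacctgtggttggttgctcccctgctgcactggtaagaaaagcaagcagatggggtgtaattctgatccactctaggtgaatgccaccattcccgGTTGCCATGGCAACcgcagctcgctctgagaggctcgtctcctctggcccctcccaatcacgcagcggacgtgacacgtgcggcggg

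The members were no stronger than other promoter peaks by a margin that could be told from counting error. They held from 26 to 912 reads with a median of 82 (quartiles 54 and 132), against a median of 81 in the 1641 one-strand promoter peaks that failed the composition rule (CpG-poor), 81 in the 423 peaks with starts on both strands within 1 kb (bidirectional) and 73 in all peaks. CpG-poor here describes the sequence around the summit and not the promoter as a whole. Such a peak can lie up to 1 kb from a start that is itself CpG-rich. Fold enrichment of the members over the background ranged from 3.44 to 71.3 with a median of 8.98, against 8.94 in CpG-poor, 8.71 in bidirectional and 8.54 in all peaks. Reads reached the median of all peaks in 57.4% of members and in 56.9% of CpG-poor promoter peaks (95% Wilson intervals 55.5 to 59.2% and 54.4 to 59.2%, adjusted p = 0.862, two-sided Fisher's exact test with Benjamini-Hochberg adjustment over 8 tests). Fold enrichment reached its median in 52.9% of members and in 51.6% of CpG-poor peaks (adjusted p = 0.643, Fisher's exact test). Against bidirectional peaks, the shares were 57.4% and 57% by reads (adjusted p = 0.916) and 52.9% and 51.5% by fold (adjusted p = 0.851, both by Fisher's exact test). Wilson intervals cover counting error only. In all, members held 310416 reads, which is 0.914% of the retained reads and 13.7% of the reads in peaks.

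Among the members themselves, strength hardly varied with CpG content. The median number of reads was 83, 84, 84 and 77 in bins of equal size from the lowest to the highest observed/expected CpG, and Spearman's rho of this ratio with reads was -0.0483 across the 2838 members, which share 1 library. At the bound of the rule, the peaks at Wdr26 and Esyt2 lay just inside with a ratio of 0.601 and held 64 and 157 reads, and those at Gpr25 and Cabin1 lay just outside, a little under 0.6, and held 473 and 114 reads. Of the CpG-poor peaks, 1329 failed only by CpG, 30 only by GC and 282 by both. Members had another peak within 10 kb less often than CpG-poor promoter peaks (35.4% against 45.9%, odds ratio 0.647, adjusted p = 5.21e-11) and more often than bidirectional ones (35.4% against 27.9%, odds ratio 1.42, adjusted p = 0.00844, both by Fisher's exact test). The comparison of neighbouring peaks was chosen after the values were seen.

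The members with the most reads were at genes of varied function. The peak at Olig1, a transcription factor of the oligodendrocyte lineage, held 912 reads with a fold enrichment of 49 and had its summit in a coding exon, 583 bp downstream of the start. Mast3, a serine/threonine kinase, had 695 reads at -425 bp from its start and the highest fold enrichment of all members, 71.3. Whsc1l1, a histone methyltransferase, had 643 reads and a fold of 54. Further members of the top 20 were at the neuropeptide gene Cartpt (494 reads, at -57 bp), the centrosomal kinase gene Nek2 (536 reads), the GABA-B receptor auxiliary subunit gene Kctd8 (568 reads), the teneurin gene Odz4 (561 reads), the ligand gene Wnt3a (465 reads) and the claudin gene Cldn23 (478 reads). The others of the 20 were at Wipf3 and A130022J15Rik with 606 reads each, Adck4 with 586, Scrn1 with 572, Kif26b with 527, Mfhas1 with 518, Adamts2 with 517, Palm2 with 488, and Galnt14 and Zfp664 with 480 each. Of these 20 summits, 18 were downstream of the nearest start, 1 had a strict X-box (Palm2) and 6 had a near X-box. Over all members these shares were 70.4%, 4.9% and 15.9%. Members made up 16 of the 100 peaks with the most reads in the library and 1 of the 20 with the most, against 12.2% of all peaks.

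The start of Rfx6 itself stood apart from the rest of the top 20. Its peak (chr10:51396987-51398858) held 630 reads, and only 0.154% of all peaks held as many, but its fold enrichment was 6, the lowest of the 20, and 79.6% of all peaks reached that value. The summit was in a coding exon, 56 bp from the start. The plasmid carries Rfx6 coding sequence, and its part in these reads was not tested. The next lowest fold enrichment of the 20 was 13.5, at Kif26b.

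**Figure D1:**
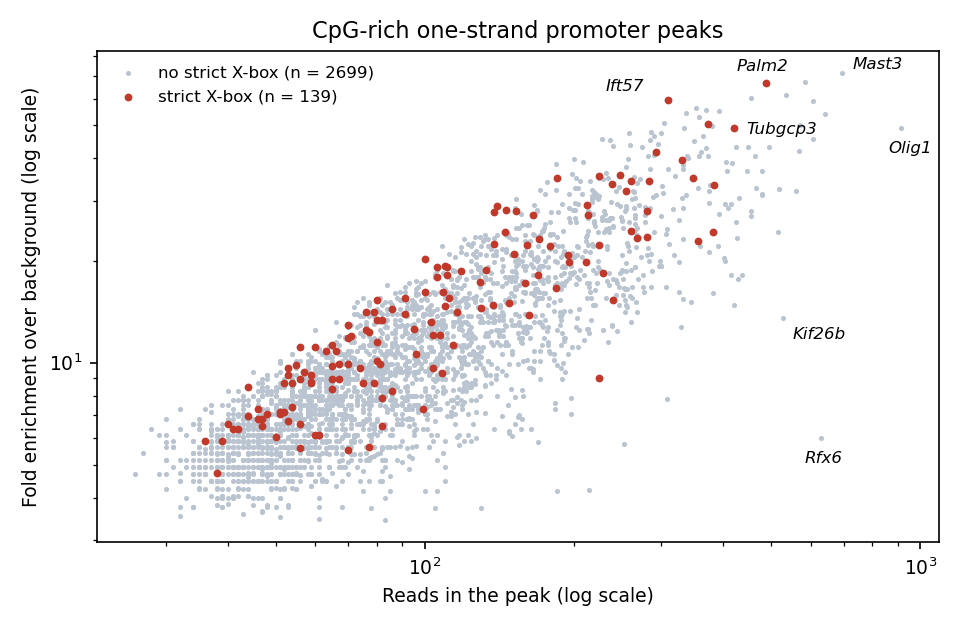
Reads in the peak (x axis, log scale) against fold enrichment over the background (y axis, log scale) of the 2838 CpG-rich one-strand promoter peaks. Red points are the 139 members with a strict X-box within the 200 bp around the summit and grey points the 2699 without; Rfx6 lies at 630 reads with a fold of only 6, and the red points sit towards the upper edge of the cloud (median fold 13.2 against 8.94).

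Summits lay mostly inside the transcribed side of the promoter. The summit was downstream of the nearest start in 1999 members (70.4%, 95% Wilson interval 68.7 to 72.1%), upstream in 835 (29.4%) and on the start base in 4. The median position was 147 bp downstream of the start, with quartiles at -34.8 and 347 bp. Within 100 bp of the start lay 24.6% of summits, within 200 bp 46.3% and within 500 bp 83.4%. In CpG-poor promoter peaks 55.5% of summits were downstream and the median position was 61 bp.

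The rule itself favours the downstream side, where more positions meet it. Around the 2821 starts of the members, 93.2% met the composition rule at the start, 26.2% at 500 bp upstream and 62.9% at 500 bp downstream, and 61.2% of all positions within 1 kb that met it were downstream. The share of summits downstream was 70.4%, and no test was made of the 2 values. Accordingly, many summits fell in transcribed sequence: 20.9% in coding exons, 25.2% in untranslated exons, 33.3% in introns and 20.6% outside transcripts. For CpG-poor promoter peaks these shares were 11.3, 13.5, 46.9 and 28.3%.

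**Figure D2:**
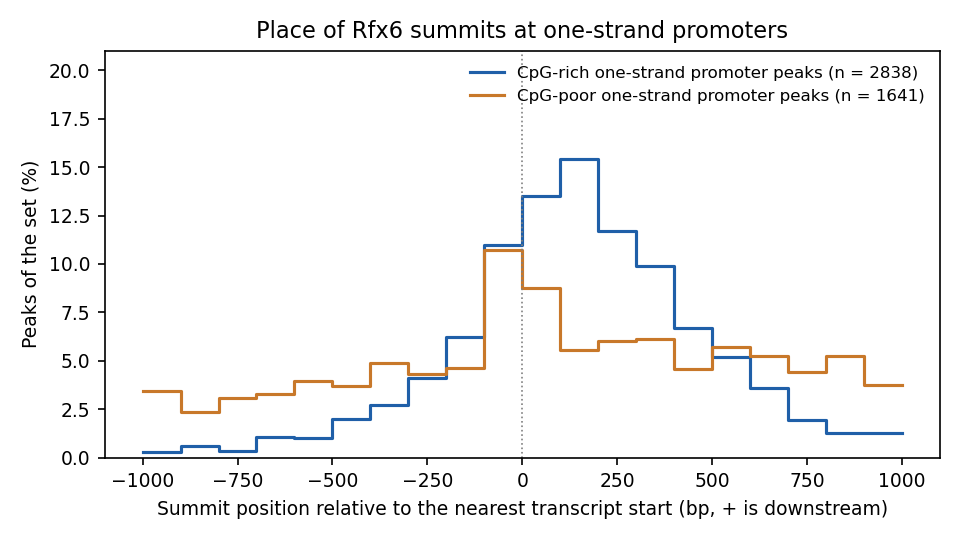
Position of the summit relative to the nearest protein-coding transcript start (x axis, bp, positive downstream) as a percentage of each set in bins of 100 bp (y axis), for the 2838 CpG-rich (blue) and 1641 CpG-poor (orange) one-strand promoter peaks. CpG-rich promoter peaks are most frequent between the start and 200 bp downstream of it, whereas CpG-poor ones are spread more evenly.

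The X-box was found at the summit of a minority of members and was rare in the sequence beside it. The strict X-box keeps both arms, with the third base of the left one free and only purines or only pyrimidines allowed at 3 further positions, and 0 to 3 bases between them, on either strand. It was present within the 200 bp around the summit of 139 members (4.9%, 95% Wilson interval 4.16 to 5.75%), against 6.42% of all peaks. In windows of the same size in the same promoters, centred 300 bp upstream and downstream of the summit, the shares were 0.282% and 0.141%. In 139 members only the summit window held the box and in 8 only the upstream window (p = 5.29e-32, exact McNemar test). At all 17814 CpG-rich one-strand starts of the genome, with or without a peak, 0.921% had a strict X-box in the 200 bp around the start. The near X-box, with at most 2 mismatches in 12 bases, was present in 15.9% of summit windows against 3.31% upstream and 3.21% downstream, and in 5.14% at the starts. A relaxed X-box pattern was present in 35.1% against 21.4% and 20.6%.

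Base composition differed between these windows, with a median GC of 68.5% at the summit, 63.5% upstream and 61% downstream. Members had the strict X-box less often than CpG-poor promoter peaks (4.9% against 7.07%, odds ratio 0.677, adjusted p = 0.00844, Fisher's exact test). With the midpoint of the peak in place of its summit, the odds ratio was 0.736 and the call was lost (p = 0.0526, Fisher's exact test). The lower share of members was seen only for summits downstream of the start, 2.15% against 5.49%. Upstream the shares were 11.4% in members and 9.04% in CpG-poor peaks, and neither pair was tested. The sets also differ in the mix of sides, with 70.4% and 55.5% of summits downstream. The rule separates these sets by base composition, and in the neighbouring windows the share of CpG-poor peaks was 0.0609% upstream and 0.244% downstream. Against bidirectional promoter peaks the shares were 4.9% and 6.38% (odds ratio 0.755, adjusted p = 0.385, Fisher's exact test).

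The X-box was concentrated at the members whose summit lay upstream of the start. It was present in 11.4% of the 835 upstream members (95% Wilson interval 9.4 to 13.7%) and in 2.15% of the 1999 downstream members (1.6 to 2.88%), an odds ratio of 5.84 (p = 1.12e-22, two-sided Fisher's exact test). This comparison was chosen after the values were seen. From far upstream to far downstream, the share was 9.47% between -1000 and -500 bp, 10.4% between -500 and -200 bp, 12.4% between -200 and 0 bp, 3.05% between 0 and 200 bp, 1.87% between 200 and 500 bp and 0.798% between 500 and 1000 bp. The fall came at the start itself, and the intervals of the bins to either side of it (9.75 to 15.6% and 2.07 to 4.46%) did not overlap.

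The median GC content around the summits was 62.2 to 64.2% in the upstream bins and 66.1 to 67.6% in the downstream ones, and its part in the difference between the sides was not tested. Below the members' median GC of 66.2%, the X-box was present in 13% of upstream and 2.84% of downstream members, and at or above it in 8.71% and 1.65%. Within 200 bp of the start alone, the shares were 12.3% and 3.05%. By annotation, the share was 12.6% for summits outside transcripts, 3.38% in introns, 3.36% in untranslated exons and 1.52% in coding exons. These classes differ in side, and all 585 summits outside transcripts were upstream. For upstream and downstream summits the shares were 10.9% and 2.1% in introns, 5.95% and 2.87% in untranslated exons, and 3.57% and 1.42% in coding exons. The near X-box gave a smaller difference, with 23.8% of upstream and 12.6% of downstream members (odds ratio 2.17, p = 5.39e-13, Fisher's exact test), and the downstream share was still above that of the windows 300 bp upstream and downstream of these summits, 3.6% and 3.7%.

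CpG-poor promoter peaks showed a smaller difference between the sides, with the X-box in 9.04% of upstream and 5.49% of downstream summits (odds ratio 1.71, p = 0.00648, Fisher's exact test). The odds ratio between the sides was 3.42 times as large in members as in CpG-poor peaks (p = 8.40e-06, Zelen's exact test over 4474 peaks), a comparison also chosen after the values were seen, between sets that the rule separates by composition. Within 200 bp upstream of the start the CpG-poor peaks had the box in 16.6%.

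**Figure D3:**
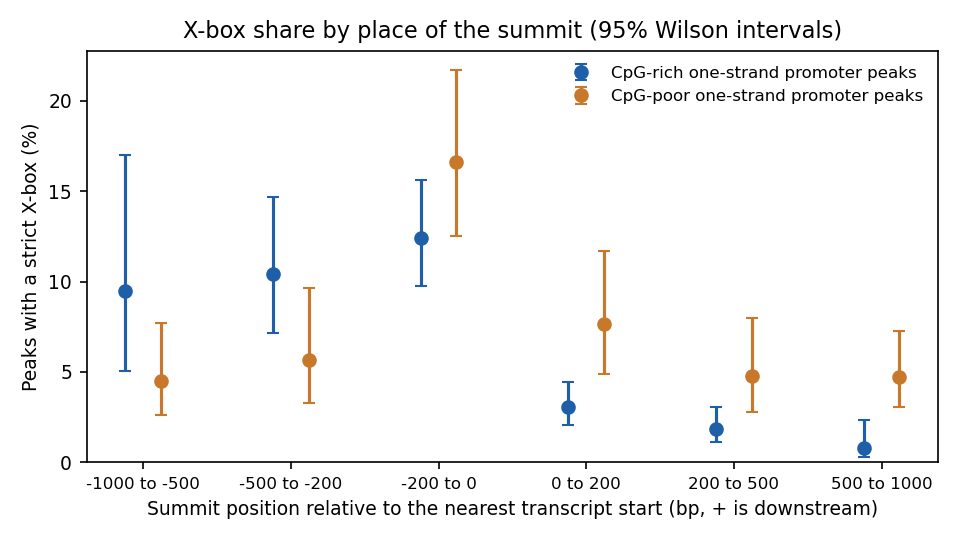
Percentage of peaks with a strict X-box within the 200 bp around the summit (y axis) by the position of the summit relative to the start (x axis, bp), for CpG-rich (blue) and CpG-poor (orange) one-strand promoter peaks; bars are 95% Wilson intervals. In CpG-rich promoter peaks the share is 12.4% in the 200 bp before the start and 3.05% in the 200 bp after it. In CpG-poor ones the corresponding shares are 16.6% and 7.63%.

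The boxes themselves lay close to the summits. The 139 members held 141 strict X-boxes, of which 63.1% lay within 20 bp of the summit and 85.8% within 50 bp, with a median distance of 13 bp. Distances were taken from the summit to the nearer end of the box, and a box that spans the summit counted as 0 bp. In 78 of the boxes the arms were 2 bases apart, in 46 by 1 base, in 15 by 3 bases and in 2 they adjoined. Relative to the start, 70.2% were upstream, the median position was -61.5 bp, and 41.8% were within 100 bp. Among the 15 members with the box and the most reads, the summit fell within the box at Ift57, Rhpn1, Prr7 and Tbcel.

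**Figure D4:**
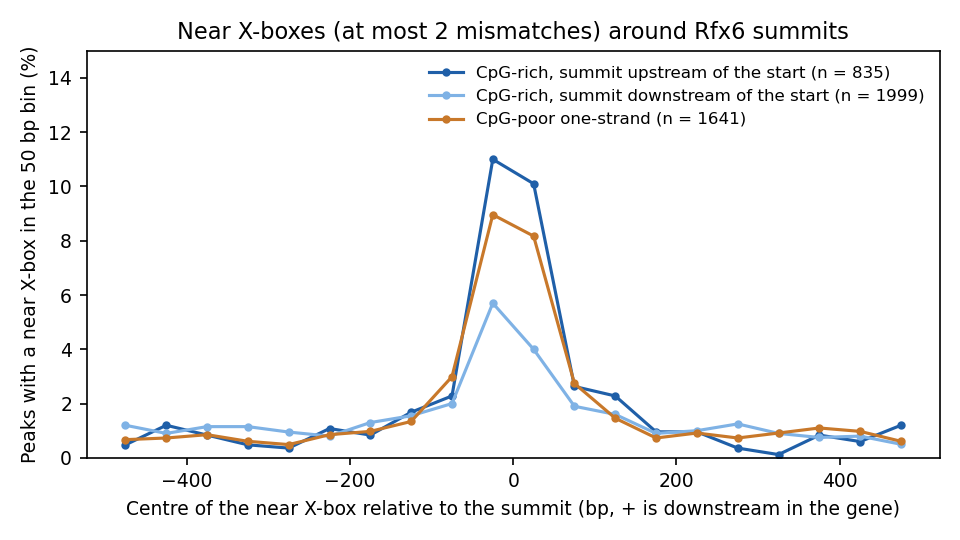
Percentage of peaks with a near X-box (at most 2 mismatches in 12 bases) centred in each 50 bp bin (y axis) by distance from the summit in the direction of the gene (x axis, bp). Dark blue is the 835 CpG-rich promoter peaks with the summit upstream of the start, light blue the 1999 with the summit downstream, and orange the 1641 CpG-poor promoter peaks; each line peaks at the summit, and the light blue peak is the lowest.

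Members with a strict X-box had higher fold enrichments than those without. Their fold enrichment had a median of 13.2 (quartiles 8.73 and 20.9) against 8.94 (6.36 and 13.8), and it reached the median of all peaks in 78.4% against 51.5% (odds ratio 3.42, p = 2.57e-10, two-sided Fisher's exact test). By reads the difference was smaller, with medians of 96 and 82, and 65.5% against 56.9% at or above the median of all peaks (odds ratio 1.43, p = 0.0528, Fisher's exact test). The box was present in 11.6% of the tenth of members with the highest fold enrichment and in 0.353% of the tenth with the lowest. By reads the corresponding shares were 8.45% and 2.12%. These comparisons were also chosen after the values were seen.

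The members with the box and the most reads were at Palm2, a paralemmin gene (488 reads, fold 66.5), Tubgcp3, a component of the γ-tubulin ring complex (421 reads, fold 49.2), and Mtap6, which stabilises microtubules (384 reads, fold 33.4). They were followed by 1110034A24Rik (382 reads), Ap1m1, a subunit of a clathrin adaptor (373 reads), Rhpn1 (356 reads), 1110004E09Rik (348 reads), Cep135, a centriole protein (330 reads, fold 39.5), and Ift57 (310 reads, fold 59.5). Prr7 held 292 reads, Zfyve28 283, Pik3r1, the regulatory subunit of phosphoinositide 3-kinase, 281, Tctn1 280, the F-box gene Fbxo31 268 and Tbcel 261. Of these 15 genes, Ift57 and Tctn1 are in the list of cilium genes used here.

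Words of 6 bases at the summit were counted without naming a motif. Among all words found within 50 bp of the summit in at least 3% of members, the arm GTTGCC had the highest ratio to the windows 200 bp to either side, 14.7% against 3.84% or 3.83 times. The next were CGTTGC (9.65% against 2.92%), GGTTGC (14% against 4.33%) and GTTGCT (11% against 3.59%), which overlap the arm or its variants. GTTGCC also ranked first for the downstream members, with 13.5% against 3.78%, and for the upstream ones, with 17.6% against 4.01%. The arm was found in 19.3% of all peaks and in 4.35% of windows of the same size at CpG-rich one-strand starts.

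No such rise over the neighbouring windows was seen for elements of general promoters. Each was searched on both strands within 50 bp of the summit. The GC box GGGCGG, bound by Sp and KLF factors, was present in 25.1% of members, against 30.8% in windows 200 bp upstream, 23% downstream and 44.9% at CpG-rich starts. The CCAAT box of NF-Y was present in 5.64% against 8.99% and 7.65%, the ETS motif CCGGAAG in 3.07% against 3.24% and 2.71%, and the E-box CACGTG in 1.83% against 2.18% and 1.69%. The YY1 core GCCATNTT was present in 1.06% of members, against 1.52% upstream, 1.27% downstream and 5.62% at the starts. For the NRF1 core GCGCATGC the share was 0.634%, against 0.951% upstream, 0.388% downstream and 2.55% at the starts. Windows at the starts are centred on the start, whereas only 24.6% of member summits lay within 100 bp of one. The full cAMP response element TGACGTCA was present in 0.282% of members against 0.388% upstream and 0.247% downstream. Its short form TGACG was present in 9.58% against 9.27% and 8.67%. TCGCGA, the core bound by ZBTB33, was present in 1.23% against 1.52% on each side. Motifs of islet factors were found in few members, and the last 3 named here were also scarce in the compared windows. The NeuroD type E-box CAGATG was present in 2.64% of members. The forkhead core TGTTTAC was present in 0.388%, against 0.564% upstream, 0.493% downstream and 1.15% of all peaks. The HNF1 arm GTTAAT was present in 0.211%, against 1.06% on each side and 1.24% of all peaks. For the homeodomain core TAATTA the share was 0.0705%, against 0.705% upstream, 0.564% downstream and 0.751% of all peaks. CAGATG was present in 3.14% of windows 200 bp upstream, 4.62% downstream, 2.17% at CpG-rich starts and 7.71% of all peaks. The AP-1 site TGAGTCA was present in 0.247% of members, against 1.09% upstream, 0.846% downstream and 1.78% of all peaks. For the TATA box TATAAA the share was 0.282%, against 1.34% upstream, 0.987% downstream and 1.54% of all peaks. Base composition differs between these windows and sets, and its part in the shares was not tested.

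The members lay at the starts of 2792 protein-coding genes. Of the 9794 genes with a CpG-rich one-strand start, 2624 held a member (26.8%, 95% Wilson interval 25.9 to 27.7%). Of the 10755 with only CpG-poor one-strand starts, 676 held a CpG-poor promoter peak (6.29%). The 2 shares are unlike measures, because CpG-poor peaks at the first group of genes and members at the second are outside both. More than 1 member was found at 62 genes, and Ubtf, which encodes a factor of RNA polymerase I transcription, had 3, with 86, 153 and 171 reads. On the X chromosome 12 of 287 such genes held a member (4.18%, interval 2.41 to 7.16%), below the autosomes, which ranged from 21.3 to 34%. The X chromosome held 0.747% of all peaks, and the 14 members on it had 40 to 102 reads with a median of 54. Of genes with only CpG-poor starts, 1.49% on the X chromosome and 6.57% on the autosomes held a CpG-poor promoter peak.

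Genes of the primary cilium and of intraflagellar transport held a member at 19 of 38 CpG-rich starts (50%, interval 34.8 to 65.2%), against 26.8% of all such genes. Their peaks held 36 to 310 reads with a median of 88. Of the 19 summits, 8 were downstream of the start, 4 had a strict X-box and 9 a near X-box, against 70.4%, 4.9% and 15.9% of all members. The 4 were at Ift57, a subunit of the intraflagellar transport complex B, Tctn1, a protein of the ciliary transition zone (280 reads, fold 28), Wdr35, a subunit of complex A (103 reads, fold 13.2), and Bbs1, a subunit of the BBSome (36 reads, fold 5.88). Wdr35 and Bbs1 are named for their X-box after its presence was seen. Kif3b, a motor subunit of kinesin-2, had 217 reads at -1 bp from its start, and Ift140, of complex A, had 191 reads, both without a strict X-box. Other genes of the list with a member included Ahi1, B9d1, Bbs7, Dync2h1, Ift52, Ift74, Ift81, Ift88, Kif17, Tmem231, Traf3ip1 and Wdr60.

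In the RFX family, 3 of 8 genes held a member (37.5%, interval 13.7 to 69.4%, which includes 26.8%), at Rfx6, Rfxap (81 reads) and Rfx5 (43 reads), of which the latter pair belong to the complex that binds promoters of major histocompatibility class II genes. The part of the plasmid in the reads at Rfx6 was not tested. Clock genes held a member at 9 of 20 (45%, interval 25.8 to 65.8%), including the repressor Cry2 (381 reads), Nfil3 (237 reads), Clock (211 reads) and Npas2 (167 reads). None of the peaks at clock genes had a strict or near X-box, which 4.9% and 15.9% of all members had. Notch pathway genes held one at 9 of 21 (42.9%, 24.5 to 63.5%), including the glycosyltransferase gene Lfng (229 reads), the receptor gene Notch2 (204 reads) and the coactivator gene Maml3 (104 reads). For both lists the interval includes 26.8%.

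Genes of β cell function held members at shares whose intervals include the 26.8% of all such genes. Islet transcription factors held a member at 4 of 22 (18.2%, interval 7.31 to 38.5%), namely Foxo1 (185 reads), Foxa1 (108 reads), Mnx1 (99 reads) and Pax6, which had a member at each of 2 starts (87 and 48 reads). Genes of insulin secretion and exocytosis held one at 7 of 27 (25.9%, 13.2 to 44.7%), with Chga, a granin, at 96 reads, the calcium channel subunit gene Cacnb3 at 60 and Syt7 at 54. Kcnj11, the pore subunit of the KATP channel, also had a member, with 187 reads at -219 bp from its start, but it is outside this count, which takes genes whose start itself meets the rule. Genes of insulin receptor signalling held one at 9 of 24 (37.5%, 21.2 to 57.3%), including Pik3r1 with its X-box, Igf1r (130 reads) and Foxo1. That count includes Pdk1 (117 reads), whose symbol in the mouse is that of a pyruvate dehydrogenase kinase rather than of the signalling kinase Pdpk1, which is listed too, and without it 8 of 23 held a member (34.8%, 18.8 to 55.1%).

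Of the 11 common disallowed genes, which are repressed in β cells while active in most tissues, 10 had a CpG-rich one-strand start and 3 held a member (30%, interval 10.8 to 60.3%). The peak at Slc16a1, the monocarboxylate transporter gene, held 150 reads with a fold of 23.1 and lay 341 bp downstream of the start (chr3:104442260-104443591). That at Smad3, a transducer of TGF-β signals, held 130 reads with a fold of 13.5 and lay at -253 bp (chr9:63605171-63606715). That at Lmo4, a LIM domain protein, held 57 reads with a fold of 9.18 and lay 320 bp downstream. None of the 3 had a strict or near X-box, which 4.9% and 15.9% of all members had.

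The remaining lists were near or below the share of all genes. Potassium channel genes held a member at 13 of 42 (31%), among them Kcnj6 (250 reads) and Kcnh1 (189 reads), and Kcnk1 (230 reads) held one outside this count. Wnt pathway genes held one at 8 of 25 (32%), of which Fzd1 (149 reads), Fzd6 (83 reads), Fzd2 (79 reads) and Fzd3 (69 reads) encode receptors. That list leaves out ligand genes that held a member, among them Wnt3a (465 reads) and Wnt9a (177 reads). Genes of protein folding and ER stress held one at 7 of 25 (28%), including Ero1lb (86 reads), Wfs1 (82 reads) and the chaperone genes Hspa5 (69 reads) and Dnajc3 (49 reads). TGF-β pathway genes held one at 6 of 23 (26.1%), where Smad3 was followed by the coreceptor gene Tgfbr3 (129 reads) and the corepressor gene Ski (73 reads). Collagen genes held one at 3 of 11 (27.3%), at Col13a1 (109 reads), Col5a1 (88 reads) and Col15a1 (40 reads). Cell cycle regulators held one at 6 of 29 (20.7%), including the cyclin gene Ccnd1 (107 reads) and the CDK inhibitor genes Cdkn1a (123 reads), Cdkn2b (84 reads) and Cdkn2c (44 reads). Genes of the respiratory chain held one at 10 of 47 (21.3%), with Ndufs6 of complex I at 118 reads and the ATP synthase genes Atp5l and Atp5b at 96 and 83. Proteasome genes held one at 5 of 29 (17.2%), with 52 to 86 reads, the most at Psmd7.

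Shares were lowest for ribosomal protein, zinc finger and Hox genes. Cytosolic ribosomal protein genes held one at 11 of 69 (15.9%, interval 9.14 to 26.3%), led by Rps19 (172 reads), Rpl24 (114 reads) and Rpl21 (103 reads). Zfp genes, which encode zinc finger proteins, held one at 34 of 205 (16.6%, 12.1 to 22.3%), with 228 reads at Zfp653 and 183 each at Zfp64 and Zfp398, and 1 of them, Zfp523 (100 reads), had a strict X-box. Both intervals lie below 26.8%. A further 6 Zfp genes held a member outside this count, among them Zfp664 (480 reads). None of the 25 Hox genes with such a start held one, which allows a share of up to 13.3% by the Wilson interval. The lists are small and were not tested against each other.

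**Figure D5:**
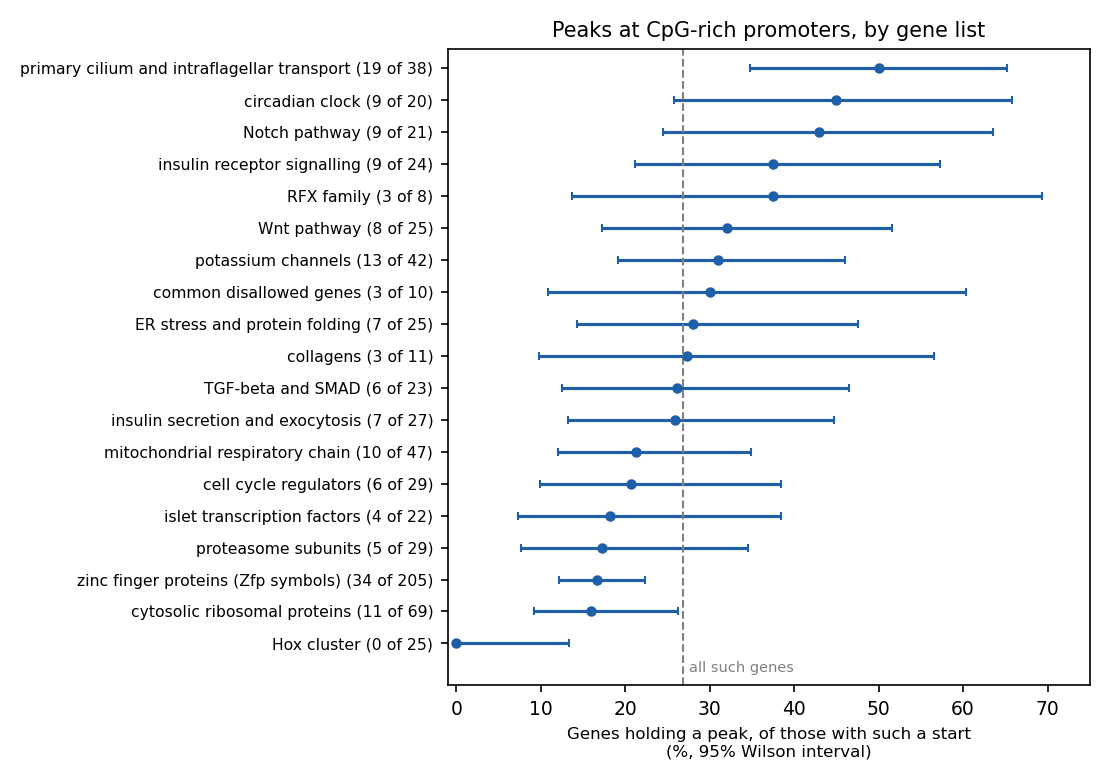
Percentage of genes with a CpG-rich one-strand start that hold a member (x axis), for each of the 19 gene lists (y axis, with the counts), with 95% Wilson intervals; the dashed line marks the 26.8% of all such genes. Cilium genes lie at 50% with an interval above the line, and Hox, ribosomal protein and zinc finger genes have intervals below it.

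The FDR that MACS, the peak caller, gave did not fall with the strength of the members. This value, which comes from exchanging ChIP and control, had a median of 3.35%, and the 14 members with a score of 3100, among them those at Olig1 and Mast3, carried 25.3%. A single member, at Cldn23, had an FDR of at most 1%.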

How the data were processed

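Anti-HA ChIP-seq was available as 1 library of Min6b1 cells transfected with 3HA-Rfx6 and 1 control library, and the deposited peak list of the former was used. The authors sequenced single reads of 50 bases after 14 PCR cycles. The submitters' processing notes name CASAVA 1.8.2, Bowtie, MACS 1.4.2 and mm9. Per the file headers, MACS used a p-value cutoff of 1e-05, kept at most 1 read per position and set a fragment size of 234 bp. The deposited count of reads per peak is not normalized. The deposited fold enrichment is a ratio to a background that MACS models from control and local windows, the score deposited with it is -10 log10 of a p-value, and the FDR, as deposited, is in percent. The retained share of reads was 68.7% in the HA-Rfx6 library and 21.1% in the control. The authors' peaks rest on pooled reads of a single library, so no value has a replicate error.

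From these, each summit was placed on NCBIM37 and compared with the starts of 51733 protein-coding transcripts of GENCODE M1 (45982 distinct starts). Composition was taken over 500 bp, X-boxes over 200 bp around the summit and motifs over 100 bp. Sequences were read from NCBIM37. A gene counted in the background when a start of it had no protein-coding start within 1 kb on the other strand and met the composition rule. Shares have 95% Wilson intervals, and tests were two-sided Fisher's exact and exact McNemar tests and Zelen's exact test of equal odds ratios, with Benjamini-Hochberg adjustment over the 8 comparisons with other promoter peaks. Named are the genes at the 20 members with the most reads, at the 15 with the most reads among those with a strict X-box, up to 4 per list by reads, the genes tied to the study's ChIP-seq that hold a member, and the peaks next to the bound of the rule. A few genes that this rule names, among them those on chromosome 18, are not reported here. The members, gene lists and motifs were chosen with earlier results of these data known. The alternatives were stricter peak sets, other distances, composition bounds, X-box patterns and windows, and the midpoint of the peak. The search and the classification were tested on simulated data. The tools were Python 3.11.15, scipy 1.17.1, numpy 2.4.6, pandas 2.3.3 and matplotlib 3.10.9.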

Additional observations from a re-analysis of the deposited data

How the results depend on the processing

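Of 88 values recomputed under the alternatives, 57 kept their direction and side of the threshold or their level. Stricter peak sets leave fewer and stronger members by construction. The 50% of peaks with the highest scores held 1653 members with median reads of 120 and fold of 13, 15.7% of genes held one, and the odds ratio for reads against CpG-poor peaks turned to 0.97 (p = 0.741, Fisher's exact test). A fold of at least 10 left 1202 members with median reads of 143 and fold of 15.5, an X-box share of 7.24% and 11.4% of genes, and the odds ratio for reads with against without an X-box turned to 0.816. An FDR of at most 1% left 1 member, with 478 reads, a fold of 31.1, no X-box (0%), a downstream share of 100% and 0.0102% of genes, and its tests could not be made. With the midpoint in place of the summit, the X-box share was 3.32%, its odds ratio against CpG-poor peaks 0.736 (p = 0.0526, Fisher's exact test) and the odds ratio for reads with an X-box 0.927. The X-box share was 35.1% with the relaxed pattern, 15.9% with the near pattern and 3.81% in 100 bp. A distance of 500 bp gave 68.5% downstream and 22.8% of genes, and stricter composition bounds gave 72.1% and 25.7%. The odds ratio for reads with against without an X-box, 1.43 as reported, passed the threshold at 500 bp (1.54), with the stricter bounds (1.53), with the relaxed pattern (1.21) and with the near pattern (1.43). The difference between upstream and downstream members, and those in fold with an X-box and in neighbouring peaks, kept their direction and call under the alternatives run for them, which were chosen after seeing the data. No paired analysis was possible because each condition had 1 library and 1 peak list. The single library, the control's lower depth and the lack of replicates limit all values, and their effect was not tested.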
